A study of Mus musculus with 12 samples.

Results

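The comparison described here is that of regulatory T cells (Tregs) lacking Ebi3 with Tregs that have it, read over all 12 arrays of the series and restricted to genes carried on mouse chromosomes other than 1 and 17. The members were every tested probe set with 1 gene symbol and such a chromosome: 22590 of the 31235 probe sets tested, standing for 12328 of the 13899 genes tested. The 6 arrays without Ebi3 were 3 of the single knockout (Ebi3 –/–, Ebi3_KO) and 3 of the double knockout (Ebi3 –/– Il10 –/–, DKO). The 6 arrays with Ebi3 were 3 of wild type (WT) and 3 of the other single knockout (Il10 –/–, Il10_KO). Thus each side held 3 arrays with and 3 arrays without an intact Il10 gene, and the Il10 genotype was kept in the model. Chromosomes 17 and 1 hold Ebi3 and Il10, and neighbours of a targeted gene are inherited together with it. The cells were sorted by flow cytometry, used fresh and untreated, and their RNA was hybridised to Affymetrix mouse arrays. Strain, age, sex, tissue, the targeted alleles and the sorting gate are not given in the labels. Replicates 1, 2 and 3 of each genotype are batches 1, 2 and 3. Nothing in the labels says that replicates are separate animals, so p-values measure the spread between these samples. Sex-linked genes, given below, set batch 3 apart from batches 1 and 2, so batch 3 was not a technical repeat of them. Between batches 1 and 2 the spread may be technical.

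Ebi3 encodes a secreted, receptor-like protein that pairs with a second chain to make a cytokine. With the chain encoded by Il27 it forms IL-27, and with that encoded by Il12a it forms IL-35, a cytokine first described as a product of Tregs that restrains other T cells. IL-27 signals through Il27ra and Il6st, IL-35 through pairings of Il12rb2 and Il6st, and both act on STAT transcription factors. IL-10, a further suppressive Treg cytokine, acts through a separate receptor and STAT3.

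Ebi3 itself followed its label. Its signal was 3.0, 26.5 and 72.5 (lowest, median and highest) on the 6 arrays without the gene and 1062.5, 1726.8 and 2057.3 on the 6 with it, a difference of -5.10 ± 0.178 (SE) on the log2(signal + 20) scale (adjusted p = 1.41e-09, limma). That scale holds for every log2 difference below, always without minus with Ebi3. The single Il10 probe set read 184.5 to 2939.8 on the WT arrays and 1027.8 to 2038.2 on the arrays labelled Il10_KO. It did not separate the Il10 genotypes, and since the position of the deletion is not given it checks nothing about those labels. Foxp3, the transcription factor that defines Tregs, read 4945.3 to 7955.0 on all 12 arrays, and Cd4 read 2053.2 to 4470.2. Median signals of the arrays lay between 59.5 and 89.3, and the 4 arrays of batch 3 stood apart in Xist, the RNA of the inactive X chromosome (3620.0 to 6440.8, against at most 132.2 in batches 1 and 2), in every genotype. The Y-linked Eif2s3y went the other way, at 1.9 to 43.0 in batch 3 and 2984.7 to 4477.6 in batches 1 and 2. These are readings of female cells in batch 3 and male cells in batches 1 and 2. Whatever sets batch 3 apart below therefore cannot be told apart from sex.

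Outside chromosomes 1 and 17 no gene was called. Of the 22590 probe sets, 0 passed an adjusted p of 0.05 (limma, Benjamini-Hochberg over all tested probe sets). Over all 31235 the share was 0.016%, or 5 probe sets: Ebi3, 3 others on chromosome 17 (Psmb9, Unc5cl and Dennd1c) and 1 with several gene symbols that was given no chromosome. At an unadjusted p under 0.05 there were 987 members (4.37%, against 4.7% of all tested probe sets). They comprised 408 higher without Ebi3 (1.81%, background 2.03%) and 579 lower (2.56%, background 2.66%). The shares among the members thus lay slightly below those of the whole table. By chromosome they ran from 2.62% on chromosome 8 to 6.27% on chromosome 13 among chromosomes with over 100 tested probe sets, while chromosome 17 held 12.2%.

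**Figure D1:**
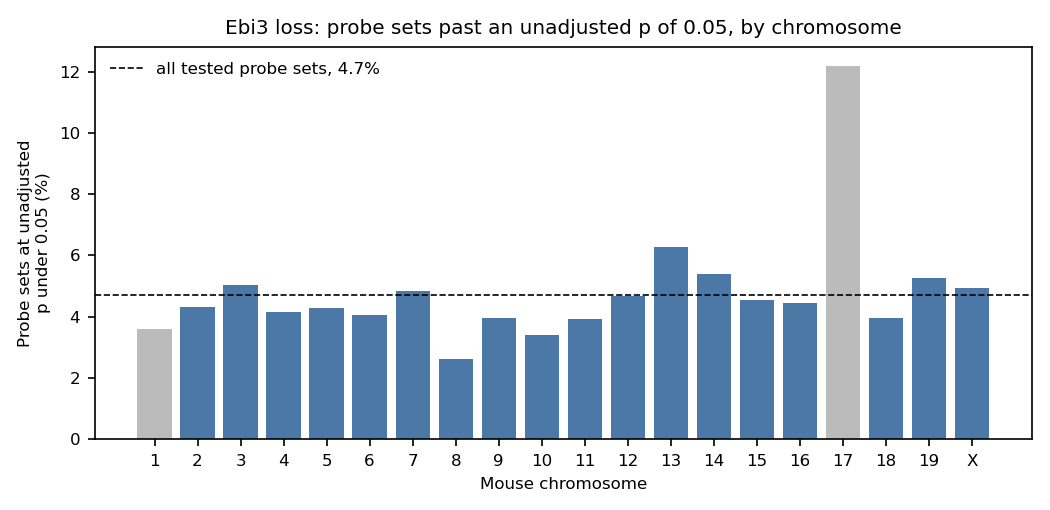
Share of tested probe sets at an unadjusted p under 0.05 (vertical axis, percent) for the Ebi3 difference, by mouse chromosome (horizontal axis), with chromosomes 1 and 17 in grey, the others in blue and the share over all tested probe sets as a dashed line. The blue bars lie between 2.62% and 6.27%, and chromosome 17 reaches 12.2%.

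The differences were small for most genes. The median over the members was -0.013, with a 5th percentile of -0.368 and a 95th percentile of 0.361, and the median standard error of 1 probe set was 0.178. A difference of at least 1 on the log2 scale, which is a doubling or halving, was reached by 27 of the 22590 members. Of these, 8 were among the 12188 members whose mean lay at or above the median of the tested probe sets. Over all 31235 tested probe sets that size was reached by 74, 28 of them among the 15618 at or above that median. The members thus reached it less often than the whole table. Within each batch the arrays form pairs of the same Il10 genotype, Ebi3_KO with WT and DKO with Il10_KO, giving 6 pairs that share no array. All 6 pairs pointed one way for 863 members (3.82%, against 3.77% of all tested probe sets). The 6 arrays without Ebi3 did not overlap the 6 with it for 19 members (0.0841%, against 0.102%).

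The Ebi3 difference could also be read separately in mice with and without Il10. Across the 22590 probe sets, the difference of Ebi3_KO from WT and that of DKO from Il10_KO correlated with Pearson's r = 0.0 and Spearman's rho = 0.02, and 51.6% had the same sign. These 2 sets of arrays share the 3 batches but no array. Among the 12188 brighter members r was 0.06. The same comparison over the 1173 other probe sets of chromosome 17 gave r = 0.39. The interaction, which asks whether Ebi3 loss differed with the Il10 genotype, was called for 0 members (0.0% of all tested probe sets, limma), and 836 members (3.7%, against 3.94%) had an unadjusted p under 0.05.

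**Figure D2:**
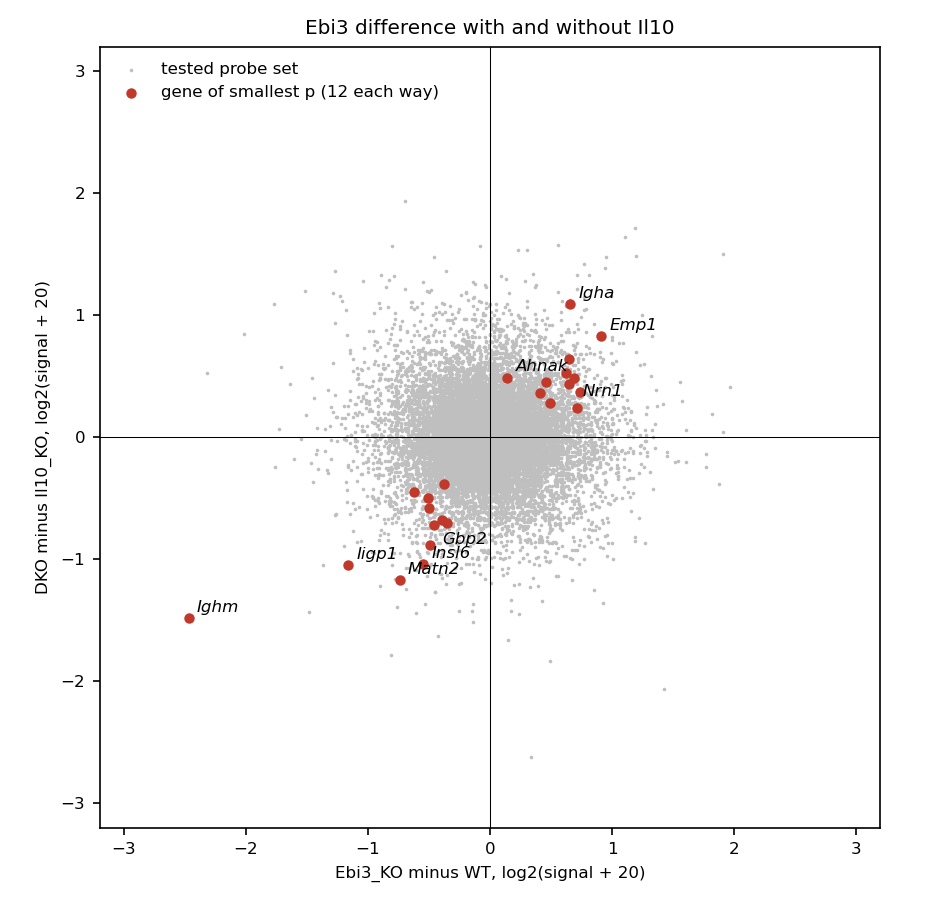
Ebi3 difference of each tested probe set outside chromosomes 1 and 17, Ebi3_KO minus WT (horizontal axis) against DKO minus Il10_KO (vertical axis), both in log2(signal + 20), with the 24 genes of smallest p in red. The grey cloud of 22590 probe sets has r = 0.0, and the red points were chosen for their pooled difference and therefore lie along the diagonal.

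Although none was called, the genes that came nearest are given with their values. They were taken as the 12 of smallest p in each direction among the brighter members, and each is described without having passed the test. Where a gene has other probe sets of comparable signal, their values are given too.

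Iigp1 (chromosome 18) encodes an interferon-inducible GTPase of defence against intracellular microbes. Its signal was 265.9, 448.3 and 990.6 (lowest, median and highest) without Ebi3 and 860.2, 1107.5 and 1425.3 with it. The groups overlapped through the highest array without Ebi3, Ebi3_KO of batch 3. The difference was -1.11 ± 0.196 (SE; adjusted p = 0.102, limma) and lay below 0 in 6 of 6 pairs. By pair it was -1.68, -1.62 and -0.19 for Ebi3_KO minus WT in batches 1, 2 and 3, and -1.29, -1.45 and -0.41 for DKO minus Il10_KO. Both batch 3 pairs thus had the smallest differences, and whether batches differed was not tested. A second Iigp1 probe set gave -0.85 ± 0.184 (adjusted p = 0.276), also with 6 of 6 pairs below 0. Whether Iigp1 was called turned on 1 array. Without Ebi3_KO replicate 3 the first probe set differed by -1.27 (adjusted p = 0.00957) and the second by -1.0 (adjusted p = 0.0488). Without all of batch 3 they were -1.51 (adjusted p = 0.00735) and -1.24 (adjusted p = 0.0084), from 8 arrays. Each probe set was called in these 2 of 27 alternatives only.

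Gbp2 (chromosome 3), a guanylate-binding GTPase induced by interferons, read 1957.3, 2836.4 and 3648.1 without Ebi3 and 3227.3, 4076.3 and 5014.9 with it. The groups overlapped only where the highest arrays without Ebi3 met the lowest with it. The difference was -0.59 ± 0.126 (adjusted p = 0.266), below 0 in 6 of 6 pairs. The brighter of its probe sets gave -0.32 ± 0.151 (unadjusted p = 0.0505), below 0 in 4 of 6 pairs. Leaving out WT replicate 3 made the difference of the first probe set -0.70 (adjusted p = 0.0465). That array belongs to the pair with the smallest difference (-0.04), and this was the only call of the probe set in 27 alternatives. Psmb10 (chromosome 8), an interferon-inducible subunit of the immunoproteasome, read 1535.1, 2800.6 and 3916.0 against 2419.7, 3649.2 and 5779.1. Its ranges overlapped widely because the batches differed in level, and its difference of -0.50 ± 0.127 (adjusted p = 0.575) was below 0 in 6 of 6 pairs.

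The promoter of Gbp2 is shown because it holds a core letter pattern of interferon-stimulated response elements, TTTCNNTTT. The 150 bases before its start site (RefSeq, GRCm38.p6, chr3:142620513-142620662, plus strand) carry that pattern and a TGANTCA pattern (the AP-1 motif) in capitals.
Gbp2: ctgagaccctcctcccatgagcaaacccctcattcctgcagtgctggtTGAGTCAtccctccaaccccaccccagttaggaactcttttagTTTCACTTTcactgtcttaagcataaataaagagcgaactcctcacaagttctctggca
Of the 24 nearest genes, 17 had a promoter in the table, 19 promoters in all. TTTCNNTTT, searched on both strands of the 300 bases from 250 before to 50 after the start, was found for Gbp2 alone among them and in 10.6% of all 32851 promoters. This pattern was added after the sequences had been seen. TTCNNNGAA, the pattern bound by STAT factors, was found for Emp1 alone and in 8.3% of all promoters. TGANTCA was found for Emp1 and Gbp2 and in 7.81% of all. The Emp1 stretch, from the first of its promoters in the table (chr6:135362781-135362930, plus strand) is printed as the one with both, the patterns again in capitals and the last pair overlapping in the final run.
Emp1: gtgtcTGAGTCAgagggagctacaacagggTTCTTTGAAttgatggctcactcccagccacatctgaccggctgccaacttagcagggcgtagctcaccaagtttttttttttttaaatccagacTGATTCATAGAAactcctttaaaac
These matches are descriptions of letters, and no binding was measured.

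The wider set of interferon-response genes had smaller differences, and their direction varied between pairs. Of 54 genes listed, 45 were tested outside chromosomes 1 and 17, and 34 of the 45 lay below 0, with a median of -0.116, against 6459 of all 12328 genes and a median of -0.009. None was called. At an unadjusted p under 0.05 there were 6 lower and 0 higher (13.3%). Over all 12328 genes, each by its brightest probe set as in every list here, 4.53% were at that threshold, 315 lower and 244 higher. The 6 were Iigp1, Bst2 (-0.52 ± 0.155, adjusted p = 0.881), which tethers budding virus, and, chosen after their values were seen, Stat2 at -0.59, Irgm2 at -0.51, Igtp at -0.32 and Gbp3 at -0.26. Of these, Irgm2, Igtp and Gbp3 are GTPases of the same defence families as Iigp1 and Gbp2. At the other end Mx2 read 0.16 ± 0.286 and Oas2 0.12 ± 0.201, and both had opposite signs in the Il10 genotypes. The median of the list by pair was -0.66, -0.32 and 0.38 for Ebi3_KO minus WT in batches 1, 2 and 3, and 0.04, -0.34 and 0.02 for DKO minus Il10_KO. The median thus lay above 0 in 3 of the 6 pairs, and without WT replicate 1 the median was -0.025.

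**Figure D3:**
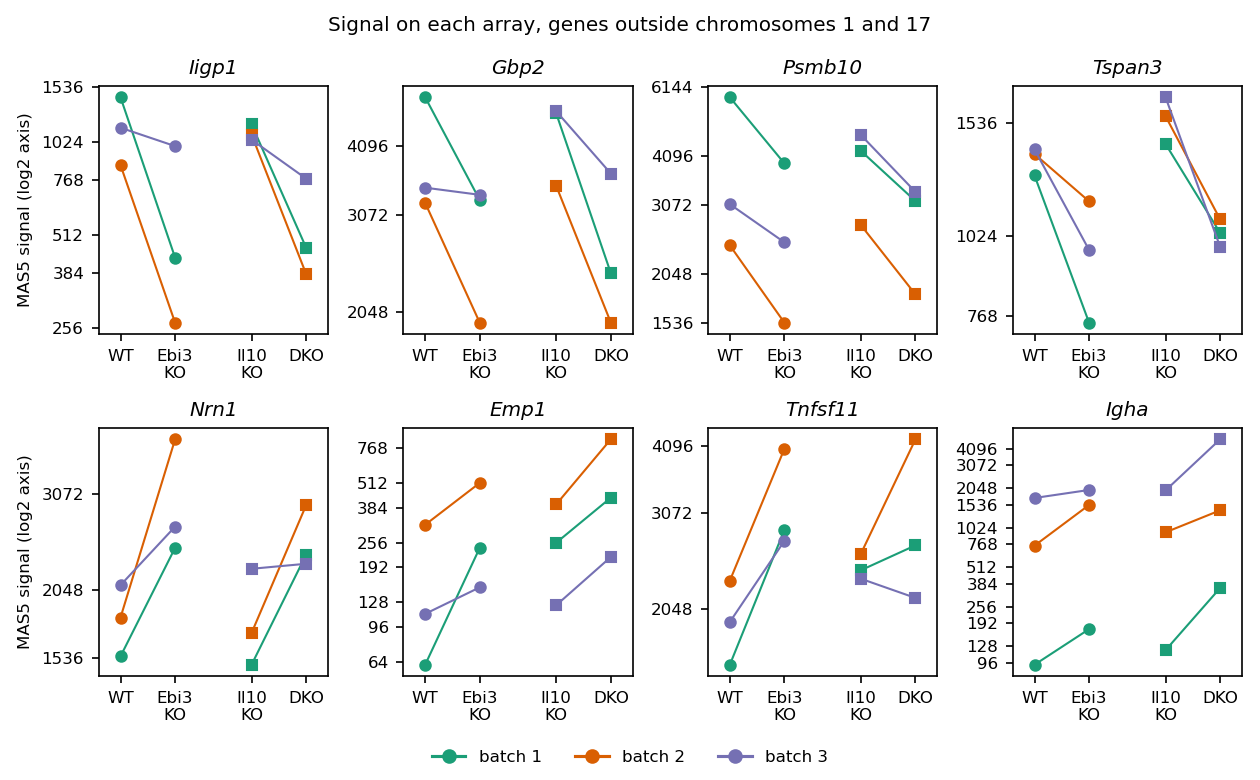
MAS5 signal (vertical axes, log2 scale) on each of the 12 arrays, by the probe set of smallest p, for 4 genes that read lower without Ebi3 (top) and 4 that read higher (bottom), with lines joining the 2 arrays of a pair and colours giving the batch. All lines of Iigp1, Gbp2, Psmb10 and Tspan3 slope down and those of Nrn1, Emp1 and Igha slope up, while Tnfsf11 slopes down in 1 of 6 pairs.

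Of the other genes on the lower side, Tspan3, Insl6 and Calcrl had arrays that did not overlap. Tspan3 (chromosome 9), a tetraspanin membrane protein, read 749.2, 1009.1 and 1158.6 without Ebi3 and 1271.5, 1410.0 and 1683.8 with it. Every array without Ebi3 lay below every array with it, and the difference was -0.54 ± 0.105 (adjusted p = 0.154). Insl6, a relaxin-family peptide gene best known from testis, read 117.9, 193.4 and 242.7 against 266.4, 345.6 and 465.1, a difference of -0.80 ± 0.180 (adjusted p = 0.359). Calcrl, the receptor chain for adrenomedullin and calcitonin gene-related peptide, read 356.3, 509.8 and 561.0 against 566.6, 694.1 and 818.9 (-0.54 ± 0.140, adjusted p = 0.642). The Tspan3 stretch upstream of the start (chr9:56161071-56161220, minus strand) is shown as that of the lower gene of smallest p whose groups did not overlap, and it held none of the patterns searched.
Tspan3: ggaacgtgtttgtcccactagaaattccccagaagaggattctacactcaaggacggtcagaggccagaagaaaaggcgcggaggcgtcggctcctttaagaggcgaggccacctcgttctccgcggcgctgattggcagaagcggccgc

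Matn2, a matrix protein, read 132.5, 201.4 and 301.6 without Ebi3 and 211.1, 478.4 and 587.4 with it. Its groups overlapped, 5 of 6 pairs lay below 0, and the difference was -0.95 ± 0.220 (adjusted p = 0.38). The exception was the batch 3 pair of Ebi3_KO and WT at 0.48, and without Ebi3_KO replicate 3 the difference was -1.18 (adjusted p = 0.0113). Matn2 was called in 2 of 27 alternatives, each without that array. The others on this side were Tufm, a mitochondrial translation factor (-0.54), Hsp90b1, a chaperone of the endoplasmic reticulum (-0.38), Rab6b, a trafficking GTPase (-0.52), and the non-coding 2610035D17Rik (-0.69). Their adjusted p ran from 0.341 to 0.642. The brightest Tufm probe set gave -0.04 ± 0.106 and the second Hsp90b1 probe set -0.12 ± 0.136, so neither shared the size of the first, while the next Rab6b and Matn2 probe sets gave -0.52 ± 0.167 and -0.77 ± 0.229. A further Rab6b probe set, of more variable signal, gave 0.06 ± 0.425.

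On the higher side Nrn1 came first among the genes with separate groups. Nrn1 (chromosome 13) encodes neuritin, a surface-anchored protein of neurons that Tregs and unresponsive T cells also make. It read 2287.4, 2560.1 and 3860.5 without Ebi3 and 1496.1, 1767.2 and 2239.5 with it. No array without Ebi3 lay among those with it, and the difference was 0.59 ± 0.121 (adjusted p = 0.219). By pair it was 0.65, 1.07 and 0.35 for Ebi3_KO minus WT and 0.66, 0.77 and 0.03 for DKO minus Il10_KO, so the last batch 3 pair was level.

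Tnfsf11, which encodes the TNF-family ligand RANKL, read 2144.1, 2798.8 and 4207.1 against 1614.2, 2316.5 and 2586.8, with overlap. Its difference was 0.47 ± 0.125 (adjusted p = 0.642), 0.71 where Il10 was intact and 0.24 where it was not, and the interaction had an unadjusted p of 0.0642 and an adjusted p of 1.0. Emp1, an epithelial membrane protein, read 152.3, 335.7 and 847.2 against 62.1, 189.6 and 398.5, with overlap. Its difference was 0.87 ± 0.197 (adjusted p = 0.359), above 0 in 6 of 6 pairs, while a second, dimmer probe set gave 0.02 ± 0.306. Among signalling genes, Pik3r1, the regulatory subunit of PI3-kinase, gave 0.56 ± 0.152, while another probe set of like signal gave 0.06 ± 0.138. A dimmer Pik3r1 probe set gave 0.58 ± 0.183. Map3k5, a stress-activated kinase, gave 0.38 ± 0.103. Ppp2ca, the catalytic subunit of phosphatase PP2A, gave 0.39 ± 0.111, but its brightest probe set gave -0.02 ± 0.0799. Rab11fip5, a recycling-endosome adaptor, gave 0.55, Ppwd1, a peptidyl-prolyl isomerase, 0.64, Enc1, an actin-associated protein, 0.58, and Ahnak, a large scaffold protein, 0.32. Nufip2, an RNA-binding protein, gave 0.46 ± 0.136, but its other probe sets gave -0.12 ± 0.129 and -0.04 ± 0.151. Over the first-named probe sets of these 8 genes, from Pik3r1 to Nufip2, the adjusted p ran from 0.642 to 0.924.

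The 2 members of smallest p had means below the median of the tested probe sets and are named after their values were seen. Nbea, a neuronal trafficking scaffold, gave 1.70 and Camk2b, a calcium-dependent kinase of neurons, 1.16, each with an adjusted p of 0.0902. Without Ebi3_KO replicate 3, Camk2b was 1.32 (adjusted p = 0.0107), and without batch 3, Nbea was 2.20 (adjusted p = 0.035). Each was called in that 1 alternative alone. Their signals, pair values and other probe sets are not given here, so these 2 differences rest on 1 dim probe set each.

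Immunoglobulin probe sets stood on both sides. Igha, the IgA heavy chain, read 173.3, 1458.0 and 4824.7 without Ebi3 and 92.8, 846.3 and 1969.1 with it. The ranges overlapped almost wholly because the level differed between batches, and within pairs the difference was 0.87 ± 0.165 (adjusted p = 0.144), above 0 in 6 of 6. Without Ebi3_KO replicate 3 it was 1.01 (adjusted p = 0.023), the only call of this probe set in 27 alternatives. The other Igha probe sets gave 1.46 ± 0.315 and 1.21 ± 0.291. One Ighm probe set, for the IgM heavy chain, read 38.1, 273.2 and 1276.5 against 235.3, 1116.1 and 2332.7 and differed by -1.98 ± 0.401 (adjusted p = 0.205). The brightest Ighm probe sets disagreed with it, at -0.16 ± 0.0922 and -0.04 ± 0.0991. Immunoglobulin probe sets can share sequence, so single ones are uncertain.

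Markers of the cells that make immunoglobulin were read beside these. Of 15 tested B cell markers, 13 lay below 0 with a median of -0.274, 0 at an unadjusted p under 0.05. The mean log2 level of that list was 8.0 to 9.79 on arrays without Ebi3 and 8.2 to 10.22 on those with it. Its median by pair was 0.81, -0.45 and -0.79 for Ebi3_KO minus WT and -0.31, -0.17 and -0.46 for DKO minus Il10_KO. The defining marker Ms4a1 (CD20) read 206.3 to 1659.9 without Ebi3 and 304.0 to 3345.2 with it (-0.57 ± 0.325), well above 0 on all arrays, and Spib gave -0.43 ± 0.260. Cd74 and Bcl11a each gave 0.03. Of 11 plasma cell markers, 7 lay below 0 (median -0.077), and Igha was the 1 at an unadjusted p under 0.05. The part of B cell or plasma cell RNA in the immunoglobulin values was not tested. In bulk samples, fewer cells of a type and less RNA per cell cannot be told apart.

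The cytokine pathway of Ebi3 itself had a list median near 0. Of the IL-27 and IL-35 pathway genes, 22 were tested, 12 above and 10 below 0, with a median of 0.008 and, by the brightest probe set of each gene, 0 at an unadjusted p under 0.05. Among the partner chains, Il12a read 6.7, 47.4 and 85.0 without Ebi3 and 14.7, 63.0 and 79.2 with it, near background on all arrays (-0.26 ± 0.371), and Il27 did not pass the filter on low values. Il12b, the chain of IL-12 and IL-23, was as dim (0.24 ± 0.216). Among the receptors, Il27ra read 2690.8, 3524.9 and 4179.8 against 2967.4, 3388.6 and 3488.4 (0.06 ± 0.0963), with full overlap. Il6st gave -0.06 ± 0.110, Il12rb1 -0.14 ± 0.143 and the dim Il12rb2 -0.19 ± 0.324. Downstream, Stat3 gave 0.02 ± 0.154 by its brightest probe set. Another of comparable signal gave -0.31 ± 0.121 (unadjusted p = 0.0217, limma), below 0 in 6 of 6 pairs. A dimmer probe set of more variable signal gave 0.36 ± 0.281, so the Stat3 probe sets disagreed. Further members gave, for the kinase gene Tyk2 -0.12 ± 0.108 and, for Lif, a cytokine of the same family, 0.31 ± 0.220. The adjusted p of each of these genes was at least 0.989. The 11 tested genes of the IL-10 pathway had a median of 0.016, 0 at an unadjusted p under 0.05.

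Treg identity genes likewise had no call. Of 20 tested, 6 lay above and 14 below 0, with a median of -0.079. Foxp3 differed by 0.07 ± 0.1, Il2ra, the interleukin-2 receptor alpha chain, by 0.12 ± 0.131, Nrp1 by 0.17 ± 0.124 and Cd4 by -0.13 ± 0.116. The members at an unadjusted p under 0.05 were Entpd1 and Gpr15, 2 of 20 against 4.53% of all genes. Entpd1, the ectoenzyme CD39 that breaks down ATP, read 293.1, 457.1 and 625.7 without Ebi3 and 525.8, 600.9 and 775.5 with it, partly overlapping (-0.42 ± 0.135, adjusted p = 0.989). Gpr15, a receptor for homing to the large intestine, gave -0.41 ± 0.148 with 6 of 6 pairs below 0 (adjusted p = 0.989).

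Suppressive effectors had a median of 0.003 over 15 tested genes. The inhibitory receptors Lag3 (-0.45 ± 0.175) and Havcr2 (-0.54 ± 0.247) read lower and Nrn1 higher at an unadjusted p. They were 3 of 15, against 4.53% of all genes. Lag3 lay below 0 in 4 of 6 pairs and Havcr2 in 5 of 6. Havcr2 was dim, at 60.3 to 206.0 without Ebi3 and 71.4 to 295.6 with it. Tgfb1 gave 0.00 ± 0.147. Gzmb, the cytotoxic granzyme B, gave -0.15 ± 0.340, made of -0.88 where Il10 was intact and 0.57 where it was not. By pair it was -2.33, -1.3 and 0.98 for Ebi3_KO minus WT in batches 1, 2 and 3, and 0.2, 0.96 and 0.56 for DKO minus Il10_KO. The pairs with Il10 intact thus differed in sign among themselves. The Gzmb interaction of 1.46 ± 0.581 had an unadjusted p of 0.0258 and an adjusted p of 1.0 (limma).

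Genes of effector Tregs lay mostly above 0, in 18 of 23, with a median of 0.136, while 52.4% of all genes lay below 0. By pair the median was -0.06, 0.14 and 0.29 for Ebi3_KO minus WT and 0.26, 0.28 and -0.12 for DKO minus Il10_KO, so it lay below 0 in 2 of 6 pairs. At an unadjusted p under 0.05, 4 read higher and 1 lower (21.7%, against 4.53% of all genes), and none was called. Klrg1, a receptor of terminally differentiated T cells, read 4598.9, 5385.1 and 8561.2 without Ebi3 and 3300.5, 4033.0 and 6946.3 with it, with overlap (0.40 ± 0.146, adjusted p = 0.989). Rora, a nuclear receptor, gave 0.35 ± 0.110, and Gata3 and Cd44, chosen after their values were seen, gave 0.24 each. The lower one was Cxcr3, the chemokine receptor of cells in T helper 1 responses. It read 1475.8, 3840.0 and 5836.9 against 3285.9, 4457.6 and 6004.0 (-0.52 ± 0.172), and both batch 3 pairs lay at or just above 0 (0.08 and 0.09).

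Effector cytokines and regulators had a median of 0.137 over 16 tested genes, 9 above 0, with 4 higher at an unadjusted p under 0.05 (25.0%, against 4.53% of all genes). By pair the median ran from -0.27 to 0.29. Il2, a T cell growth factor that Tregs scarcely make, gave 0.53 ± 0.228 at signals of 70.5 to 291.2 against 47.2 to 146.8. Ifng read 1351.2, 1882.5 and 4640.4 against 307.3, 1857.3 and 3589.1, its medians nearly level (0.55 ± 0.270), with 1.04 where Il10 was intact and 0.05 where it was not (interaction, unadjusted p = 0.0632, limma). Ccl5 gave -0.17 ± 0.107. Of 23 homing receptors, Ccr9, which guides T cells to the small intestine, was lowest at -0.62 ± 0.171 (adjusted p = 0.732). It read 403.1, 594.1 and 957.1 against 615.5, 956.0 and 1183.3, overlapping, with 6 of 6 pairs below 0. Itga4, an integrin chain used in gut homing, gave 0.20 ± 0.0829 with 6 of 6 above 0, and Ccr4 gave 0.31 ± 0.177. The list median was -0.012. Of the resting T cell genes, Id3, which is lost as T cells differentiate, gave -0.41 ± 0.151.

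The immediate-early genes, which any stimulus or handling of cells can induce, gave the largest list median, 0.349, with 34 of 36 above 0. None of the 36 had an unadjusted p under 0.05. By pair the median was 1.86, 0.36 and 0.02 for Ebi3_KO minus WT and 0.02, -0.13 and -0.15 for DKO minus Il10_KO. Without WT replicate 1 it was 0.040. Nr4a1, an orphan nuclear receptor induced by the T cell receptor, read 4361.8, 9893.2 and 20978.8 without Ebi3 and 2394.6, 7028.4 and 11116.4 with it (0.56 ± 0.265), with overlap and pair differences from -0.03 to 2.01. Egr2 gave 0.26 ± 0.123, with 0.57 and -0.04 in the Il10 genotypes (interaction, unadjusted p = 0.00746, adjusted p = 1.0, limma), Egr3 -0.05 ± 0.138 and Btg1 -0.08 ± 0.0780.

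**Figure D4:**
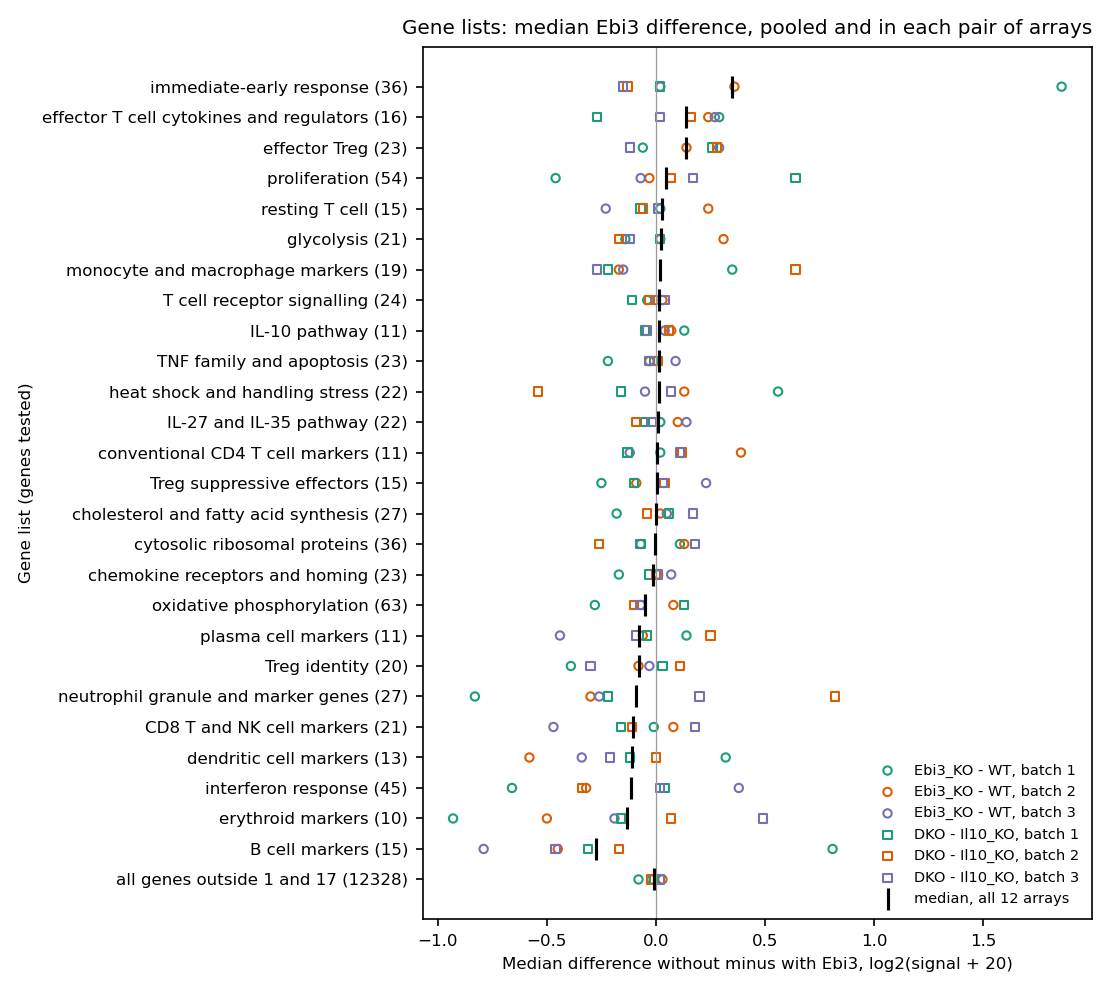
Median Ebi3 difference of each gene list (horizontal axis, log2(signal + 20), genes outside chromosomes 1 and 17), pooled over 12 arrays (black bars) and in each of the 6 pairs (open symbols, coloured by batch). For most lists the symbols lie on both sides of 0, and the point farthest right is the batch 1 pair of Ebi3_KO and WT for the immediate-early genes at 1.86.

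Lists of cell growth and metabolism lay near 0. Proliferation genes had a median of 0.047 (36 of 54 above 0), with pair medians from -0.46 to 0.64 that had opposite signs in the 2 batch 1 pairs. Kif23, a kinesin of cytokinesis, gave 0.27 ± 0.119 with 6 of 6 pairs above 0, Rrm2, a ribonucleotide reductase subunit, 0.35 ± 0.177, Plk1 -0.25 ± 0.164 and Tk1 -0.27 ± 0.192. Genes of oxidative phosphorylation lay below 0 in 50 of 63, against 52.4% of all genes, by a median of -0.048. By pair the median was -0.28, 0.08 and -0.07 for Ebi3_KO minus WT and 0.13, -0.1 and -0.07 for DKO minus Il10_KO. At an unadjusted p under 0.05 there were 2 lower and 0 higher (3.17%, against 4.53% of all genes). The lowest members of the list were Ndufa6 (-0.32 ± 0.127) and Sdhd (-0.23 ± 0.108), subunits of respiratory complexes I and II. Of 27 sterol and fatty acid genes (median 0.001), 3 read higher and 2 lower at an unadjusted p (18.5%, against 4.53% of all genes). Among them were Stard4, a sterol carrier, at 0.29 ± 0.112 (its other probe sets of like signal at -0.03 ± 0.113 and -0.04 ± 0.145), the dim desaturase Fads2 at 0.82 ± 0.338, Idi1 at -0.27 ± 0.107 (another at -0.06 ± 0.124) and Scd2 at -0.28 ± 0.110. Scd2 differed by -0.56 where Il10 was intact and by -0.01 where it was not (interaction, unadjusted p = 0.00763, adjusted p = 1.0, limma).

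Heat shock and stress genes had 3 lower and 1 higher at an unadjusted p among 22 (18.2%, against 4.53% of all genes), with a median of 0.012. The lower ones included the chaperone genes Hsp90b1 and Stip1 (-0.50 ± 0.163), and the higher one was Gadd45a, a growth-arrest gene (0.33 ± 0.152). Ribosomal protein genes had a median of -0.004 (36 tested), glycolysis 0.022 (21), T cell receptor signalling 0.016 (24), TNF family and apoptosis 0.013 (23) and resting T cell genes 0.030 (15).

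Markers of cells other than Tregs had no call. Neutrophil genes had a median of -0.090 (21 of 27 below 0) and pair medians from -0.83 to 0.82. S100a9, a neutrophil alarmin, read 185.0 to 2797.5 without Ebi3 and 314.3 to 2758.8 with it, above 0 on every array. It differed by -1.31 where Il10 was intact and 0.09 where it was not, and Mmp8, a neutrophil collagenase, likewise by -1.35 and 0.07. The interactions had unadjusted p of 0.00291 and 0.00674 and an adjusted p of 1.0 each (limma). In the opposite direction the neutrophil lectin gene Fcnb gave 0.90 ± 0.301 and Mgst1 0.45 ± 0.206, each with 6 of 6 pairs above 0. Fcnb and Mmp8 were dim, near the median signals of the arrays. Fcnb read 67.6 to 134.0 without Ebi3 and 9.4 to 78.9 with it, and Mmp8 2.1 to 135.3 against 40.6 to 198.3. Among 21 genes typical of cytotoxic T and natural killer cells the median was -0.107, with Gzmk (-0.81 ± 0.272) and Nkg7 (-0.39 ± 0.140) at an unadjusted p under 0.05 (9.52%, against 4.53% of all genes). Gzmk was dim as well, at 21.0 to 81.7 without Ebi3 and 32.6 to 195.2 with it. Dendritic cell markers had a median of -0.110 (13), monocyte and macrophage markers 0.020 (19), erythroid markers -0.132 (10) and conventional CD4 T cell markers 0.005 (11). The part of such cells in the values above was not tested. The sex-linked genes, which mark no cell type, had a median of -0.228 (6). Among them Usp9y read 2.1 to 47.3 on all arrays and Uty 1.1 to 22.0 on those of batch 3, near background.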

How the data were processed

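RNA of sorted Tregs was measured on 12 arrays (4 genotypes, 3 batches). MAS5 and Partek 6.4 are named in the submitters' processing notes. Each deposited value was found, from the numbers themselves, to be a natural log of MAS5 signal after adding 20, and the authors had scaled each array to a trimmed mean of 500. Division by the natural log of 2 gave log2(signal + 20), without other normalization. Log2 values had been planned for. Probe sets at or above the 40th percentile of their array on 3 or more arrays were tested, 31235 of 45101, and 64 control probe sets were left out. Of the tested probe sets, 5920 had no chromosome. Names came from the platform annotation (34945 probe sets with 1 symbol, 932 with several, 9160 with none), and 34741 matched RefSeq (GRCm38.p6).

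Batch, Il10 and Ebi3 were fitted additively with limma 3.58.1 in R 4.3.3 (lmFit, eBayes with trend, 7 residual degrees of freedom), with p-values adjusted by Benjamini-Hochberg over all tested probe sets and a threshold of 0.05. The fit was tested on simulated data. Arrays of 1 batch, which the labels name, deviated together from their genotype means (correlations of 0.325 to 0.664 over 18 pairs). Arrays of different batch and different genotype gave -0.531 to -0.0204. Taking out the genotype means pulls these below 0, so they are not separate evidence. Named genes were the 12 of smallest p each way at or above the median signal (1 probe set per gene), the members of highest and lowest t in each list, and genes named by role. Lists used 1 probe set per gene, that of highest mean. Alternatives were other block, Il10, offset, normalization, filter and variance settings and leaving out arrays or batches. The members and lists were chosen with earlier results of these data known. The number of arrays limits the precision of every value.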

Additional observations from a re-analysis of the deposited data

Results flagged for a closer look

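In the group of 6 arrays with Ebi3, 1 array lay far from the other 5 for Il12b, where Il10_KO of batch 3 read 67.2, and for Fads2, where Il10_KO of batch 1 read 56.2. In the group without Ebi3, the Rrm2 signal of Ebi3_KO of batch 1 was the lone low value at 814.4. Chance gives such a gap in about 1 of 20 groups, and the groups of all named genes were examined.

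For the brightest probe set of Il6st, the shared receptor chain gp130, all 3 pairs with intact Il10 lay below 0 and all 3 pairs without Il10 above 0. The difference between them was 0.42 ± 0.200 (limma interaction, unadjusted p = 0.0548, adjusted p = 1.0). The next brightest Il6st probe set did not repeat this pattern. In batches 1 and 2 it read 505.6 and 848.0 on the DKO arrays, below 630.9 and 994.1 on the Il10_KO arrays.

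A probe set that the annotation ties to several genes differed by -1.60 ± 0.182 without Ebi3 (adjusted p = 0.00561, limma), in 6 of 6 pairs. It was given no gene and no chromosome here.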

How the results depend on the processing

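The number of members called was 0 under each alternative tried except 1 with the Il10-null arrays alone (Sostdc1, -2.62, adjusted p = 0.0203) and a range of 0 to 5 when 1 array or 1 batch was left out: 1 without WT replicate 3 (Gbp2), 5 without Ebi3_KO replicate 3 (both Iigp1 probe sets, Igha, Camk2b and Matn2) and 4 without batch 3 (both Iigp1 probe sets, Nbea and Matn2). Without the batch block, which pairs arrays by replicate number, 0 members were called and 279 had an unadjusted p under 0.05, against 987 with it, and the range on leaving out 1 array or batch was 795 to 1171. The interaction had 0 calls throughout, including without the block.

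Of 2262 values of 84 named probe sets, 60 had the opposite sign. With Il10-null arrays alone these were Nrp1 (-0.04), Lif (-0.07), Egr2 (-0.04), S100a9 (0.09), Mmp8 (0.07), Cd74 (-0.16), Il6st (0.15) and Gzmb (0.57). With Il10-sufficient arrays alone they were Rrm2 (-0.03), Mx2 (-0.23), Oas2 (-0.06), Btg1 (0.07), Bcl11a (-0.17), Il12a (0.33), Il27ra (-0.01), Il12rb2 (0.28), Stat3 (-0.05) and Tgfb1 (-0.14, and 0.00 with an offset of 100). On leaving out 1 array or batch the ranges that crossed 0 were Bcl11a -0.18 to 0.24, Cd74 -0.12 to 0.14, Egr3 -0.16 to 0.14, Foxp3 -0.07 to 0.20, Gzmb -0.62 to 0.30, Il12a -0.60 to 0.08, Il12rb2 -0.42 to 0.05, Il27ra -0.03 to 0.16, Il6st -0.13 to 0.01, Oas2 -0.13 to 0.39, Stat3 -0.14 to 0.14 and Tgfb1 -0.08 to 0.09. The cause was not tested. Signals near background, as for Il12a and Il12rb2, limit what these arrays show.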
